A study of Mus musculus with 6 samples.

Results

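The feedback inhibitors of the ERK pathway described here are 10 mouse genes: the dual-specificity phosphatases Dusp4, Dusp5 and Dusp6, the Sprouty genes Spry1, Spry2 and Spry4, the Sprouty-related genes Spred1, Spred2 and Spred3, and Il17rd, also known as Sef. They were chosen by name, and their Ensembl identifiers were matched to symbols in GENCODE M21. All 10 had a row among the 22432 genes of the authors' deposited table. All 10 also had an adjusted p-value, so none was lost to the authors' filter on low counts.

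Sequencing of total RNA covered 3 CDH1+/THY1+ and 3 CDH1-/THY1+ samples of male mouse germline stem cells in culture, which in the testis renew themselves and supply the cells that become sperm. CDH1 is the adhesion protein E-cadherin and THY1 a surface glycoprotein used to enrich these cells. Each population had 1 sample from each of the cultures RP7, RP5 and WT1, at passage 6 to 8. RP7 was labelled OCT4/GFP; Dox-OCT4 with an age of 8 weeks, RP5 carried the same strain label with an age of 19 days, and WT1 was C57BL/6 with an age of 5 weeks. All samples were male and grew on DR4 feeder fibroblasts in a medium with GDNF and FGF. The OCT4/GFP; Dox-OCT4 and C57BL/6 cultures occur in both populations, so strain and age did not separate them.

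GDNF and FGF act on germline stem cells through receptor tyrosine kinases, and one of the routes from these receptors runs through Ras, Raf and MEK to the ERK kinases. Active ERK induces genes whose products damp the same route, and whether it induces each of the 10 was not tested here. The 10 genes encode inhibitors of the route. They work at different places: the phosphatases remove phosphate from ERK itself, Sprouty and Spred proteins act between the receptor and Raf, and Il17rd is a membrane protein that restrains FGF signalling.

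The values are those of the authors' own comparison by DESeq2. It gives for each gene a mean normalised count over all 6 libraries, a log2 fold change of CDH1+/THY1+ relative to CDH1-/THY1+ with its standard error, and an adjusted p-value. No value per sample or per population was analysed here, so the spread between samples enters only through the authors' standard errors. A value written with ± is a log2 fold change with its standard error, and an interval is the 95% Wald interval made from both. The direction rests on the name of the table, since the row of Cdh1 itself was not analysed here. The samples are bulk RNA, in which fewer cells of a type and less RNA per cell cannot be told apart.

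The inhibitors did not move together. In CDH1+/THY1+ cells 3 of the 10 were higher (Spred3, Dusp4 and Spry2), 2 were lower (Dusp5 and Il17rd) and 5 were not called at an adjusted p under 0.05. Over all genes with an adjusted p-value the authors' deposited table called 33.5%, with 17.1% higher and 16.4% lower. The median log2 fold change of the 10 genes was 0.04, against 0.01 over the 22330 genes with a p-value, and it was -0.01 once the median of the 200 genes of nearest mean count was taken off each gene. The sizes ran from -0.87 to 1.43, and each family of 3 was split between called and uncalled members.

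**Figure D1:**
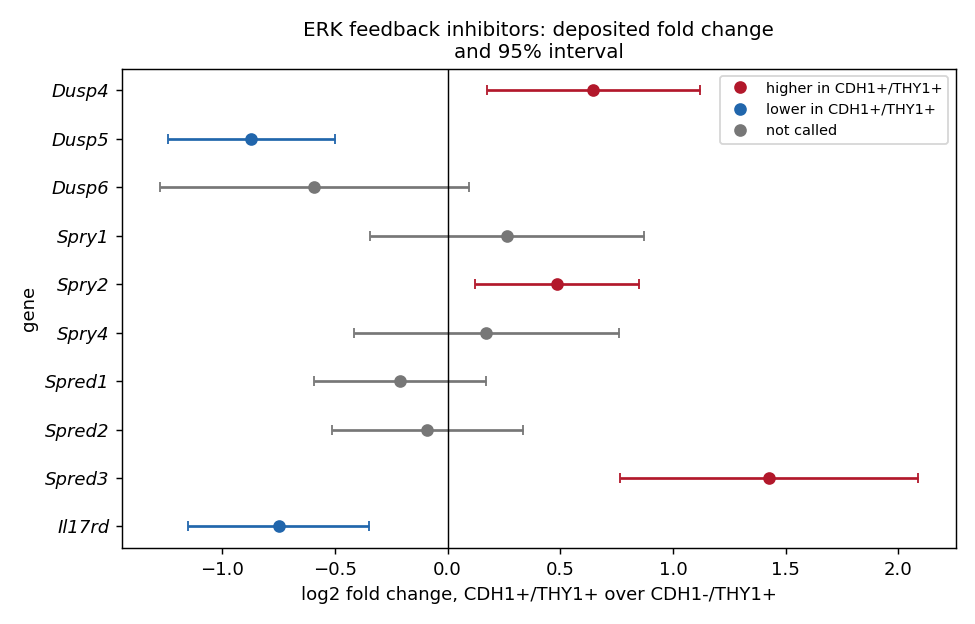
Log2 fold change of each inhibitor in CDH1+/THY1+ relative to CDH1-/THY1+ cells (x axis) by gene (y axis), with bars for the 95% interval, from the authors' deposited table. Spred3 stands at 1.43, Dusp4 and Spry2 at 0.65 and 0.49, Dusp5 and Il17rd at -0.87 and -0.75, and the intervals of the 5 grey genes include 0.

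The sequences upstream of the 4 called genes that have an entry in the RefSeq promoter table (build GRCm38.p6) are shown because these genes went in opposite directions. Each is written 5′ to 3′ on the strand of its gene. Those of Spred3 and Spry2 end at the base before the RefSeq start, and those of Dusp5 and Il17rd at the base before the GENCODE start, which lies 36 and 60 bases further upstream. The GENCODE gene of Spred3 begins 1764 bases upstream of the RefSeq start, so its sequence lies in an intron of the longer model. The Dusp5 sequence lies wholly within exon bases of an antisense RNA on the other strand, AC137853.2. Capitals mark GC boxes (CCCGCCC or its complement GGGCGGG) and CArG boxes, the kind of site that serum response factor binds.
Dusp5, lower, chr19:53528895-53529108, plus strand: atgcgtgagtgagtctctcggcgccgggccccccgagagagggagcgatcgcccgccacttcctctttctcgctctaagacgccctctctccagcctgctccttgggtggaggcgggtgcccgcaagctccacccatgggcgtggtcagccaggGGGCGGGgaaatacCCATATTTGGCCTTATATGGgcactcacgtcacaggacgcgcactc
Il17rd, lower, chr14:27038751-27038940, plus strand: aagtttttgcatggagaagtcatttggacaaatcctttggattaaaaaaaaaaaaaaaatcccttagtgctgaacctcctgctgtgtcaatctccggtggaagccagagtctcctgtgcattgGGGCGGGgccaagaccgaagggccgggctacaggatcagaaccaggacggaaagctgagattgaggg
Spred3, higher, chr7:29168648-29168897, minus strand: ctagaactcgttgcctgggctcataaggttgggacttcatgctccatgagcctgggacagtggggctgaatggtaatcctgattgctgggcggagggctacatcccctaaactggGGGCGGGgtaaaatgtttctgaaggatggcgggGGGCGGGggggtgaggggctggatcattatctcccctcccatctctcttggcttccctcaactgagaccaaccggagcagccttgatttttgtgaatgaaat
Spry2, higher, chr14:105896820-105897069, minus strand: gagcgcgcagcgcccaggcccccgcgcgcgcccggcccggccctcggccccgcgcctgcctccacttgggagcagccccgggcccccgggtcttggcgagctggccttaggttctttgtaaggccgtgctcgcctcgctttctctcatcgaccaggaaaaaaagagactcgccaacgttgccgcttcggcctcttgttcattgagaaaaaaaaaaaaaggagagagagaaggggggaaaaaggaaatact

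The Dusp5 sequence holds a pair of CArG boxes, CCATATTTGG and CCTTATATGG, directly next to each other. They begin 82 and 72 bases before the RefSeq start of the gene. At least 1 CArG box stood in 1.47% of 32851 windows of 250 bases before a RefSeq start, and at least 2 stood in 6 of them. Among the 8 inhibitors with an entry (Dusp5, Dusp6, Spry1, Spry2, Spred1, Spred2, Spred3 and Il17rd) the Dusp5 window was the 1 with a CArG box. GC boxes lay in 4 of these 8 windows (Dusp5, Spry1, Spred3 and Il17rd), against 23.4% of all windows. The 8 windows were richer in G and C, with a median of 59.4%, against 52.4% over all windows. GC boxes stood upstream of both lower genes and upstream of the higher Spred3, which has a pair of them, and not upstream of the higher Spry2. The letters of the ETS site CCGGAAGT, the AP-1 site TGANTCA and the cyclic AMP site TGACGTCA were in 0 of the 8 windows, and they were in 2.88%, 6.75% and 1.55% of all windows. The ETS core GGAA alone was in all 8 windows and in 93.4% of all windows, the full ETS site counted among its matches. Both strands were searched, and a match describes letters in a window.

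The phosphatases had called members in both directions, 1 higher and 1 lower. Dusp5, a nuclear phosphatase that acts on ERK and little on other MAP kinases (chromosome 19, 53529109 to 53542431 in GRCm38, plus strand), fell by 0.87 on the log2 scale in CDH1+/THY1+ cells per the authors' deposited table, with a standard error of 0.19. That is 1.83-fold lower, with an interval of the log2 value of -1.24 to -0.50 and an adjusted p of 3.71e-05, the strongest statistic of the 10 genes per the authors' deposited table. Its mean normalised count was 924 there. GENCODE M21 places an antisense RNA, AC137853.2, over 22.1% of the exon bases of Dusp5 on the other strand, and whether the authors' counting used strand is not given in the sources used here.

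Dusp4, a nuclear phosphatase that acts on ERK and also on JNK and p38 (chromosome 8, 34807297 to 34819894), rose by 1.57-fold per the authors' deposited table. Its log2 value was 0.65 ± 0.24, with an interval of 0.17 to 1.12 and an adjusted p of 0.024. The call was lost under a Benjamini-Yekutieli adjustment over all analysed genes with a p-value (adjusted p = 0.316). The intervals of Dusp4 and Dusp5 did not overlap, and the 2 log2 values lay 1.52 apart. This is a description, because how estimates of 2 genes vary together over the same 6 libraries is not known.

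Dusp6, the cytoplasmic phosphatase that binds ERK and dephosphorylates it (chromosome 10, 99263231 to 99267489), was not called per the authors' deposited table. Its log2 value was -0.59 ± 0.35, which is 1.51-fold lower, with an interval of -1.28 to 0.09 and an adjusted p of 0.185. This was the value farthest from 0 among the 5 uncalled genes, and it had the largest standard error of the 10 genes per the authors' deposited table although its mean count, 2223, was the second highest. Among the 200 genes of nearest mean count, 98.5% had a smaller standard error. The interval covers both 0 and values below that of Dusp5.

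The Sprouty genes all had values above 0, and 1 of the 3 passed the test. Spry2, an inhibitor that binds the adaptor Grb2 and the ubiquitin ligase Cbl (chromosome 14, 105891947 to 105896819, minus strand), rose by 1.40-fold per the authors' deposited table. Its log2 value was 0.49 ± 0.19, with an interval of 0.12 to 0.85 and an adjusted p of 0.0284. The call ended under the Benjamini-Yekutieli adjustment (adjusted p = 0.372), and also when the median of the 200 genes of nearest mean count was taken off (log2 0.42, adjusted p = 0.0699).

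Spry1 (chromosome 3, 37639947 to 37644598) had 0.27 ± 0.31 with an adjusted p of 0.553, and Spry4, on chromosome 18, had 0.17 ± 0.30 with an adjusted p of 0.709 per the authors' deposited table. Their intervals, -0.34 to 0.87 and -0.42 to 0.76, both contain the value of Spry2, and a difference within the family was not tested. The standard errors of Spry1 and Spry4 were larger than those of 94% and 92% of genes of like mean count. A GENCODE gene on the other strand, Gm42922, overlaps 24.4% of the exon bases of Spry1, with a mean count of 1.37 against 337 for Spry1 per the authors' deposited table.

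The Spred genes contained the largest change of the 10 inhibitors and 2 genes without a call. Spred3, the family member known as a weaker inhibitor than Spred1 and Spred2 (chromosome 7, 29158829 to 29170411, minus strand), was 2.69-fold higher in CDH1+/THY1+ cells per the authors' deposited table. Its log2 value was 1.43 ± 0.34, with an interval of 0.76 to 2.09 and an adjusted p of 0.000178. It was higher than 96.6% of all genes with a p-value in this comparison. Spred3 was also the gene with the fewest reads, a mean count of 72.7 per the authors' deposited table. A neighbour on the other strand, the germ cell gene Ggn, overlaps 3.25% of its exon bases and had a mean count of 4.49.

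Spred1, which brings the Ras inactivator neurofibromin to the membrane (chromosome 2, 117121374 to 117182279), had a mean count of 3116 and, per the authors' deposited table, -0.21 ± 0.20 on the log2 scale (adjusted p = 0.436). Its interval of -0.59 to 0.17 covers values from 0.663 to 1.13 times the level in CDH1-/THY1+ cells. Spred2, a close relative that also restrains Ras and Raf (chromosome 11, 19924375 to 20024026), had -0.09 ± 0.22 with an adjusted p of 0.793 and an interval of -0.51 to 0.33 per the authors' deposited table. The interval of Spred3 overlapped neither of these 2 intervals. The log2 values of Spred3 lay 1.64 above that of Spred1 and 1.52 above that of Spred2.

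Il17rd, the membrane inhibitor of FGF signalling (chromosome 14, 27038941 to 27107286), fell by 0.75 on the log2 scale per the authors' deposited table, with a standard error of 0.20. It was 1.68-fold lower in CDH1+/THY1+ cells, with an interval of -1.15 to -0.35 and an adjusted p of 0.00138. Merged over its GENCODE transcripts it has 16 exon blocks and 10985 exon bases, the most exon bases of the 10 genes. Its mean count was 1881 per the authors' deposited table. Its change lay next to that of Dusp5, a difference of 0.12 on the log2 scale, with overlapping intervals. Over the 45 pairs that the 10 genes form, 16 had intervals that did not overlap. The share among pairs drawn from all genes was not computed, so this count does not set the 10 genes apart.

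Per exon length, the inhibitors ranged over 60.7-fold as a mean over all 6 libraries. The level, in normalised counts per kb of exon, was highest for Dusp6 with 710 and Spred1 with 459, followed by Spry2 with 378 and Dusp5 with 374. Il17rd had 171, Dusp4 139, Spry1 116, Spry4 97.6 and Spred2 66.3 counts per kb. Spred3 was the lowest with 11.7 counts per kb, and it was the 1 inhibitor under the median of all genes, 31.6. The differences between neighbours in this order could not be set against the spread between libraries, since the level is 1 mean per gene. The highest member, Dusp6, stood above 94.9% of genes by this measure and Spred3 above 38.3%. The called genes were spread over the order from the third place to the last.

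**Figure D2:**
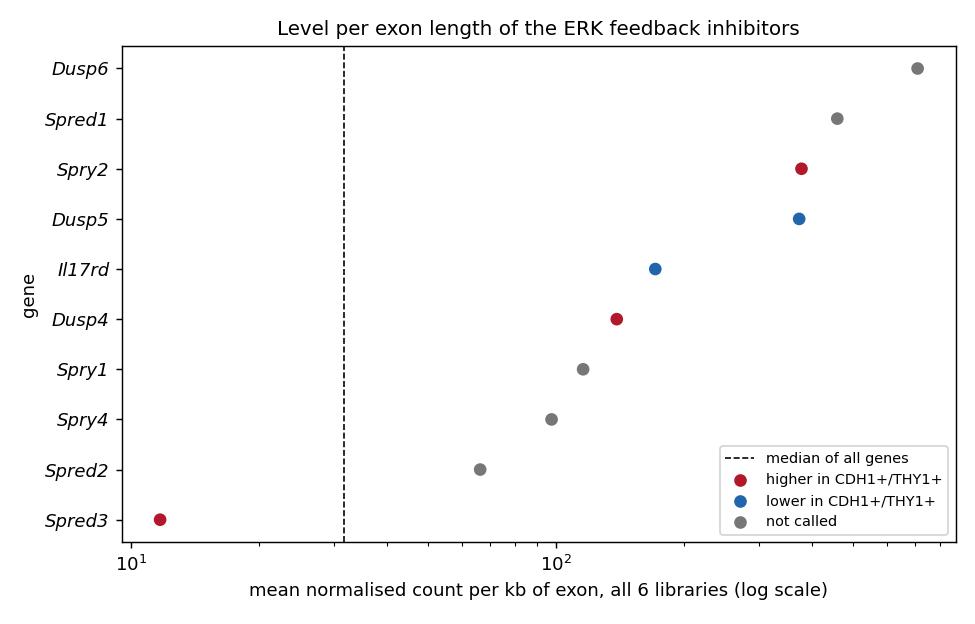
Mean normalised count per kb of exon over all 6 libraries (x axis, log scale) of each inhibitor (y axis), coloured by its call in CDH1+/THY1+ against CDH1-/THY1+ cells. Dusp6 with 710 and Spred3 with 11.7 are the ends of the order, and the dashed line is the median of all genes, 31.6.

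The authors' standard errors of the inhibitors were large for their counts, as were those of some related lists but not of others. All 10 exceeded the median of the 200 genes of nearest mean count, and the middle of the 10 stood at percentile 80.5. The same middle was 93 for genes that ERK induces, 90.75 for genes that GDNF induces and 79.5 for the receptors. Germ cell markers stood at 84.5 and fibroblast markers at 94. Lower middles were 52 for the cascade genes and 52 for the Ras GTPase activators and other inhibitors. Further MAP kinase phosphatases stood at 54 and atypical dual-specificity phosphatases at 36.5. Those of Dusp6, Spry1 and Spry4 were above the percentile of 90, and none of these 3 was called. The smallest ranks were Spred2 at percentile 55, Spred3 at 59 and Spry2 at 63.5.

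**Figure D3:**
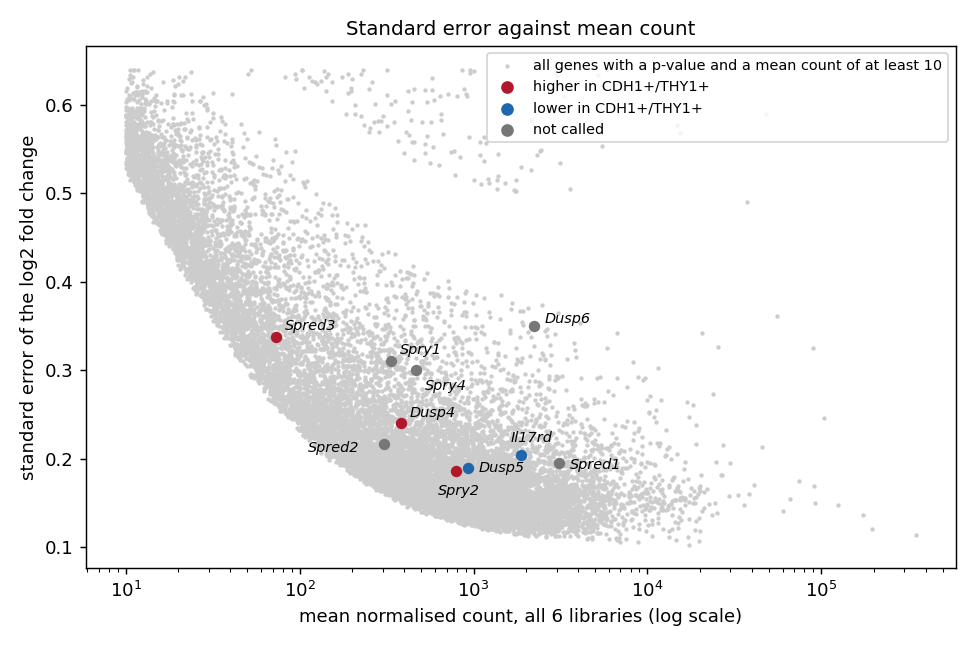
Standard error of the log2 fold change (y axis) against the mean normalised count over all 6 libraries (x axis, log scale) for genes whose mean count reached 10 (grey) and the 10 inhibitors. Dusp6, at a mean count of 2223 and a standard error of 0.35, lies above nearly all genes of like count.

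Other genes of the route were read from 7 lists, by the number called in each direction and the median. The share called was 28.6% in each phosphatase list and 32% in the cascade list, against 33.5% over all genes. It was 41.2% for genes that ERK induces and 60% for the receptors. Genes that GDNF induces and the list of Ras GTPase activators each had 50%. No list was tested as a set. Among 7 further MAP kinase phosphatases 1 was higher and 1 lower, with a median log2 fold change of 0.15. Dusp1, an inducible nuclear phosphatase, rose to 0.76 ± 0.19 (adjusted p = 0.000366), and Dusp2 fell to -1.35 ± 0.42 (adjusted p = 0.00579) at a mean count of 24.3 per the authors' deposited table. Spry3, the remaining Sprouty gene, was not analysed here.

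The receptors that feed the route were called in both directions, 4 higher and 5 lower of 15, with a median of -0.07. The GDNF receptor was lower: Ret, its signalling kinase, had -1.14 ± 0.22 (adjusted p = 3.68e-06) and Gfra1, its ligand-binding subunit, had -0.99 ± 0.25 (adjusted p = 0.000428) per the authors' deposited table. Erbb2 and Igf1r, receptor kinases of the EGF and insulin families, fell to -0.84 ± 0.17 and -0.78 ± 0.17 per the authors' deposited table. Fgfr2 and Kit, receptors for FGFs and for stem cell factor, rose to 1.07 ± 0.18 and 1.31 ± 0.24, and the EGF receptor gene Egfr to 0.59 ± 0.17. Another FGF receptor gene, Fgfr1, had -0.04 ± 0.16 and was not called (adjusted p = 0.9) per the authors' deposited table. The other FGF receptor genes went both ways there. Fgfr3 fell to -0.98 ± 0.24 (adjusted p = 0.000236), and Fgfr4 rose to 1.42 ± 0.54 (adjusted p = 0.0281) at a mean count of 14.3. Fgfrl1 had -0.11 ± 0.17 and was not called.

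Of 25 genes of the Ras to ERK cascade, 6 were higher and 2 lower, with a median of 0.12. Mapk3, which encodes an ERK kinase, had 0.12 ± 0.17 and was not called (adjusted p = 0.638) per the authors' deposited table. The adaptor genes Gab1 and Shc1 rose to 1.28 ± 0.28 and 0.58 ± 0.17, and the MEK scaffold gene Lamtor3 to 0.74 ± 0.17 per the authors' deposited table. The scaffold genes Ksr2 and Ksr1, whose products hold Raf, MEK and ERK together, fell to -2.01 ± 0.38 and -0.58 ± 0.20 there, with a mean count of 44.5 for Ksr2.

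A list of Ras GTPase activators and other inhibitors of Ras and ERK had 2 higher and 8 lower of 20, with a median of -0.36. Nf1, the neurofibromin that Spred1 brings to the membrane, fell to -0.57 ± 0.14 (adjusted p = 0.000278) per the authors' deposited table, beside the uncalled Spred1 and Spred2. The Ras GTPase activator gene Rasa2 fell to -1.04 ± 0.16 (adjusted p = 1.15e-09) per the authors' deposited table. Rasa4, of the same activator family, rose to 0.75 ± 0.23 there. The list also held genes best known for other work, and its counts and median include them. Among these, Caprin2, an RNA-binding protein gene, fell to -0.92 ± 0.14 (adjusted p = 1.95e-09) per the authors' deposited table. Spsb1, a substrate adaptor of ubiquitin ligases, rose to 0.74 ± 0.20 there.

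Of the genes that ERK induces, 6 were higher and 1 lower of 17 with an adjusted p-value, with a median of 0.44 over 19 rows. Fos and Fosb had no p-value per the authors' deposited table. The early genes Ier2 and Myc rose to 1.81 ± 0.40 and 1.01 ± 0.26, the urokinase receptor gene Plaur to 1.37 ± 0.31, and the early gene Egr2 fell to -0.96 ± 0.33 per the authors' deposited table. Etv5 and Etv4, ETS factors that are textbook targets of FGF and ERK signalling together with Dusp6 and the Sprouty genes, were not called per the authors' deposited table. Etv5 had 0.20 ± 0.29 (adjusted p = 0.641) and Etv4 had -0.15 ± 0.27 (adjusted p = 0.705), with standard errors above 96.5% and 93.5% of genes of like count.

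Genes that GDNF induces in spermatogonia had 0 higher and 4 lower of 8, with a median of -0.71. Pou3f1, Nefm and Lhx1 fell to -1.47 ± 0.28, -0.93 ± 0.26 and -0.74 ± 0.29 per the authors' deposited table. Etv5 belongs to this list too. By the unadjusted DESeq2 p-value 0 of the list were higher as well, at p under 0.05, and 5 were lower. Id4, another of the called genes at -0.81 ± 0.33, also stands in the list of germ cell markers, as does the receptor gene Gfra1. Of 17 germ cell markers 15 were lower, with a median of -1.72, and their part in these values was not tested.

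**Figure D4:**
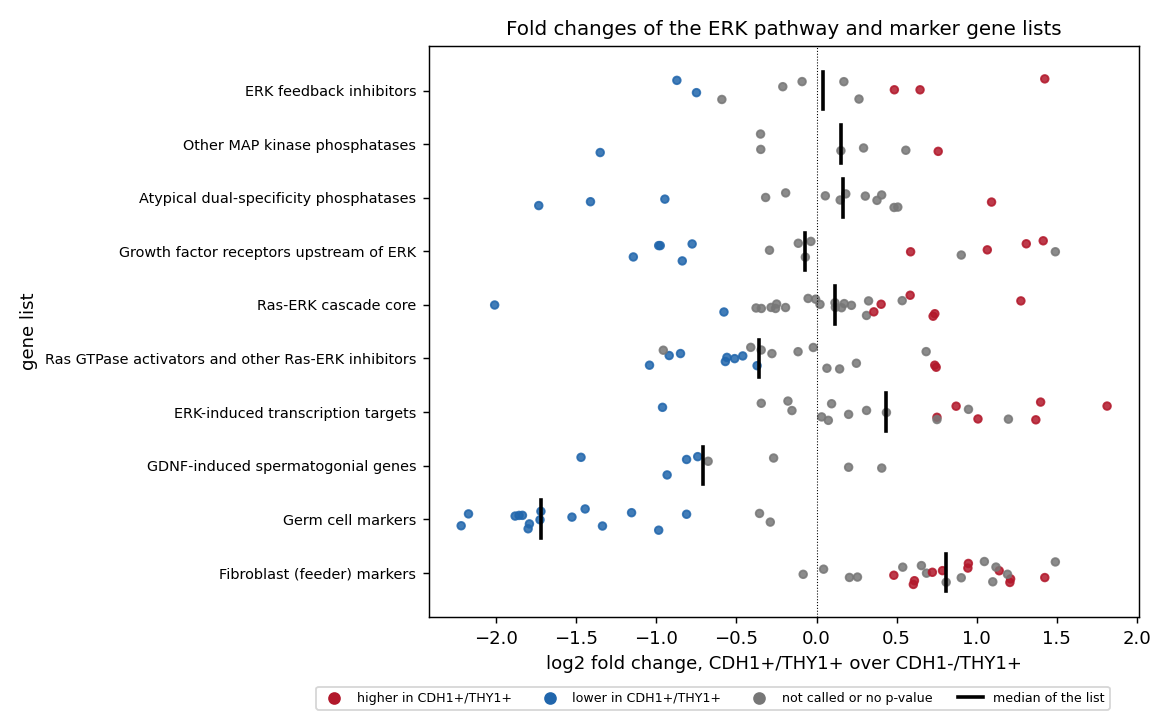
Log2 fold change in CDH1+/THY1+ relative to CDH1-/THY1+ cells (x axis) of each gene in the 10 inhibitors, the 7 lists of the route and the germ cell and fibroblast marker lists (y axis), coloured by call, with a bar at the median of each list. The inhibitors lie on both sides of 0 with a median of 0.04, the germ cell markers have a median of -1.72 and the fibroblast markers one of 0.81.

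Markers of the cells in the samples moved in the same comparison. Germ cell markers were present, with 52857 normalised counts in all over 17 genes, which is 0.313% of all normalised counts. Of the 17, 15 were lower in CDH1+/THY1+ cells, with 0 higher. The germ cell genes Mov10l1, Tdrd1 and Zbtb16 fell to -1.84 ± 0.16, -2.22 ± 0.20 and -1.86 ± 0.18 per the authors' deposited table. Fibroblast markers, the feeder cell type, made up a larger share, 2.42% of all normalised counts (409499 counts over 25 genes). Of the 25, 11 were higher and 0 lower. The lists differ in genes and size, so these shares are not shares of cells. Ccn1, Cald1 and Cd44 rose to 1.21 ± 0.16, 1.21 ± 0.17 and 1.14 ± 0.23 per the authors' deposited table. The fibroblast markers with the most reads, Col3a1, Thbs1, Col1a2 and Col1a1, were not called there. They had 0.69 ± 0.33, 0.21 ± 0.36, 1.19 ± 0.59 and 0.81 ± 0.49. At an unadjusted DESeq2 p under 0.05 there were 0 higher germ cell markers and 0 lower fibroblast markers, with 19 fibroblast markers higher. Sertoli cell markers had 2 higher and 1 lower of 9 with an adjusted p-value, and 3689 normalised counts in all over 10 genes. Kitl and Clu rose to 1.09 ± 0.39 and 0.75 ± 0.30, and Trf fell to -1.10 ± 0.28, per the authors' deposited table. Mean counts in the Sertoli list ran from 2.27 for Amh to 1582 for Clu, with 72.8 for Wt1, 67.1 for Sox9 and 2.59 for Cldn11. Of 5 leukocyte markers 3 were higher and 0 lower (the same at an unadjusted p), with 327 counts in all, among them Cd68 at 1.65 ± 0.33, Ptprc at 1.52 ± 0.51 and Mrc1 at 1.21 ± 0.44 per the authors' deposited table. Fibroblasts, which also respond to growth factors through ERK, can express the inhibitors. The part of these cell types in the values of the 10 genes and of the lists of the route was not tested.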

How the data were processed

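Total RNA of 6 samples (3 per population) had been depleted of ribosomal RNA and made into stranded libraries, per the labels' protocols. Per the submitters' processing notes, reads were processed with Trimmomatic 0.32, TopHat2 2.1.1, featureCounts of Subread 1.5.0-p3 on GRCm38.p4, and the comparison was made with R 3.3.1 and DESeq2 1.12.3. The annotation, counting settings and model formula are not given in the sources used here. The authors' mean normalised count is a signal over all 6 libraries and sums to 16900379 over the rows. The log2 fold change and its standard error, the Wald statistic (a score), the p-value and the adjusted p-value were used as deposited by the authors. No standard error exceeded 0.639, a sign that fold changes were shrunken towards 0, so that changes of genes with few reads are understated. The depth per sample is unknown. The labels give the same 3 cultures in both populations, and whether the authors' model used that pairing is not known. Nothing says how many animals a culture came from, so the p-values measure the spread between these samples.

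A gene was called at an adjusted p under 0.05. Ranks recovered from the adjusted p-values gave 19743 tests, of which 532, all called, were not analysed here. The 33.5% of genes called therefore covers the rows analysed. Adjusted p-values recomputed for the alternatives also lack these 532 tests, so they do not cover the same tests as the deposited ones.

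Symbols, coordinates and exon lengths came from GENCODE M21 (GRCm38), matched for 22317 of 22432 identifiers. Promoter sequences came from RefSeq (GRCm38.p6), with entries for 8 of the 10 genes. Bases within an annotated first exon of the gene itself were not printed, while exons of other genes were not taken out. The genes named beside the 10 inhibitors were up to 3 called genes per list and direction with the largest statistic, and a fixed set of 10 others, 1 of which is not reported here. Fos, Fosb, genes that overlap an inhibitor, and Amh, Cldn11, Wt1 and Sox9 were named after their values were seen. So were Id4, Fgfr3, Fgfr4, Fgfrl1, Col3a1, Thbs1, Col1a2 and Col1a1. Members and lists were chosen with earlier results of these data known. The alternatives were other thresholds, adjustments, filters and centrings, computed with Python 3.11.15, NumPy 2.4.6 and SciPy 1.17.1. The adjustments and centrings were tested on simulated data, and the other thresholds and filters were not.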

Additional observations from a re-analysis of the deposited data

How the results depend on the processing

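The calls of the 10 genes were recomputed under 7 alternatives, of which the 2 centrings also changed the log2 values. All 10 kept their sign under both centrings, and the 5 uncalled genes stayed uncalled in all 7. The median of the 10 turned to -0.01 with the median of the 200 genes of nearest mean count taken off. At an adjusted p under 0.01 Dusp4 (log2 0.65, adjusted p = 0.024) and Spry2 (log2 0.49, adjusted p = 0.0284) lost their calls, which left 1 higher gene. Under the Benjamini-Yekutieli adjustment the same 2 genes did (0.316 and 0.372), again leaving 1, and the lists of the route had 13 higher and 14 lower genes, against 20 and 24. Spry2 also lost its call with the median of the 200 genes of nearest mean count taken off (log2 0.42, adjusted p = 0.0699). Against a log2 fold change of 0.5 in place of 0, none of the 5 called genes was called: Dusp4 (log2 0.65, adjusted p = 1), Spry2 (log2 0.49, adjusted p = 1), Il17rd (log2 -0.75, adjusted p = 1), Dusp5 (log2 -0.87, adjusted p = 0.385) and Spred3 (log2 1.43, adjusted p = 0.0855). That left 0 higher and 0 lower of the 10 genes (2 passed by this Wald test at an unadjusted p under 0.05) and 3 higher and 5 lower in the lists of the route. No paired analysis was possible because the columns carry no value per sample, and for the same reason no replicate was left out.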

Other observations

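Atypical dual-specificity phosphatases, most of which lack the ERK-binding domain of Dusp4, Dusp5 and Dusp6, had 1 higher and 3 lower of 14 genes in CDH1+/THY1+ cells, with a median log2 fold change of 0.17. Dusp12 rose to 1.09 ± 0.21 (adjusted p = 1.4e-06) per the authors' deposited table, while Dusp18 fell to -0.95 ± 0.20 (adjusted p = 2.77e-05). Dusp26 and Styxl1 fell to -1.73 ± 0.39 and -1.41 ± 0.46 at mean counts of 32.9 and 32.8 per the authors' deposited table.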
